A study of Mus musculus with 32 samples.

Results

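Wide endothelial-only peaks are stretches of open chromatin longer than 300 bp that the authors called in liver endothelial cells and that overlap no peak called in Kupffer cells, the macrophages that reside in liver vessels. They were taken from chromosomes 1 to 19 by width and by an overlap of less than 1 bp with the Kupffer list. There were 2348 of them among 91453 endothelial peaks, of which 89631 lay on these chromosomes. They made up 32.2% of the 7287 endothelial peaks over 300 bp (95% exact binomial interval 31.2% to 33.3%) and 6.28% of the 37387 endothelial-only peaks. Among endothelial peaks of any width on these chromosomes, 41.7% were endothelial-only. Width and absence from the Kupffer list chose the peaks, so these shares are a description and nothing is read from them.

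The study profiled chromatin by ATAC-seq, where transposase inserts adapters into accessible DNA, in endothelial cells and Kupffer cells isolated from male C57BL/6J mice on normal chow. Mice with the REV-ERB a/b double knockout, described in the design as a deletion in hepatocytes of adult animals, were compared with WT mice, each at ZT10 and ZT22, which are hours after lights on. The 8 groups had 4 libraries each: knockout at ZT10, knockout at ZT22, WT at ZT10 and WT at ZT22, in each cell type. The sources used here do not give the agent or promoter behind the deletion, or how the cells were isolated. Each cell type has 16 libraries but only 1 deposited list, with a chromosome, a start and an end for each peak. No sample is named in the lists, so it is taken, not shown, that each list draws on all 16. They hold no height, score, p-value or library of origin. Depth is therefore unknown, no value below has a replicate, and neither knockout against WT nor ZT22 against ZT10 was analysed here.

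Endothelial cells line the sinusoids, the narrow vessels of the liver, where open pores and scavenger receptors let them exchange and clear material from blood. Like other cells they keep promoters and enhancers free of nucleosomes so that transcription factors can bind, and many enhancers are open in few cell types. Kupffer cells sit in the same sinusoids but descend from the myeloid lineage. REV-ERBs are heme-binding repressors of the circadian clock. The cell type could not be checked against marker genes, because no gene annotation of the build mm9, which the coordinates follow, was used. For the same reason the peaks are given by position, without gene, exon or promoter, and no base sequence is printed.

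Most wide endothelial-only peaks were only slightly over the limit. Their median width was 341 bp (quartiles 320 and 379 bp), and together they covered 837 kb. Of the 2348, 388 or 16.5% exceeded 400 bp and 49 exceeded 500 bp. The wide shared endothelial peaks, 4939 that did overlap a Kupffer peak, had a median of 349 bp, and 21.3% of them exceeded 400 bp. The 2627 wide Kupffer-only peaks, chosen by the mirror-image rule, had a median of 346 bp, and 16.1% exceeded 400 bp. Of all Kupffer peaks on these chromosomes, 60.9% were Kupffer-only. The widest peaks were 719 bp in the endothelial-only class, 1085 bp among shared endothelial peaks and 697 bp in the Kupffer-only class. At the limit of 300 bp the share of endothelial peaks that were endothelial-only changed little, while the number of peaks fell. There were 1516 endothelial peaks of 291 to 300 bp and 914 of 301 to 310 bp. Widths of 301 to 310 bp held 312 endothelial-only peaks, which were 34.1% of all endothelial peaks of that width, and widths of 291 to 300 bp held 502, or 33.1%.

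The widest member lay on chromosome 19 from 40480244 to 40480962 and was 719 bp long, with the nearest Kupffer peak 3.19 kb away. The second, on chromosome 1 from 93379060 to 93379722, measured 663 bp and had a Kupffer peak 293 bp away. The third, on chromosome 5 from 74656132 to 74656783, measured 652 bp. The fourth, on chromosome 9 from 116782197 to 116782832, was 636 bp long. Its surroundings set it apart from those 3, because the nearest Kupffer peak was 145.2 kb away while another endothelial peak lay 47 bp away and 5 other endothelial-only peaks lay within 50 kb. The fifth, on chromosome 6 from 7915753 to 7916377, was the reverse case: it was 625 bp long, had no other endothelial peak within 50 kb, and had 5 Kupffer-only peaks there. The next 2 were 619 bp on chromosome 11 from 55210718 to 55211336 and 605 bp on chromosome 12 from 85488963 to 85489567, with Kupffer peaks 1.79 and 1.57 kb away. The last 3 were 604 bp on chromosome 8 from 123495834 to 123496437, 600 bp on chromosome 5 from 148442099 to 148442698 and 598 bp on chromosome 17 from 27617136 to 27617733. Their nearest Kupffer peaks were 34.9, 26.8 and 18.3 kb away. Among these 10 peaks, 4 had a Kupffer peak within 2 kb and 4 had none within 10 kb. In the whole class 29.9% had none within 10 kb. Both kinds of surroundings thus occurred among the 10 widest, and no more is read from so few peaks.

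Width and distance from Kupffer peaks were nearly unrelated within the class. Across the 2348 peaks, which share 1 list and are not replicates, the Spearman coefficient was 0.018 between width and the gap to the nearest Kupffer peak and 0.014 between width and the gap to the nearest other endothelial peak. No endothelial-only peak was narrower than 151 bp, so the class up to 151 bp holds only peaks of exactly that width. They were 16694 of the 35039 narrower endothelial-only peaks. These narrowest peaks most often had a Kupffer peak within 10 kb. The share of endothelial-only peaks with no Kupffer peak within 10 kb was 26.6% at widths up to 151 bp (25.9% to 27.3%), 30.01% at 152 to 200 bp (28.9% to 31.2%), 31.9% at 201 to 250 bp (30.9% to 32.9%) and 31.0% at 251 to 300 bp (29.6% to 32.4%). It was 30.1% at 301 to 350 bp (27.6% to 32.6%), 29.7% at 351 to 400 bp (26.1% to 33.4%) and 29.9% above 400 bp (25.4% to 34.7%). The intervals at 351 to 400 bp and above 400 bp include the 26.6% of the narrowest peaks. The 3 classes over 300 bp differed from each other, and from that of 251 to 300 bp, by less than their counting intervals.

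**Figure D1:**
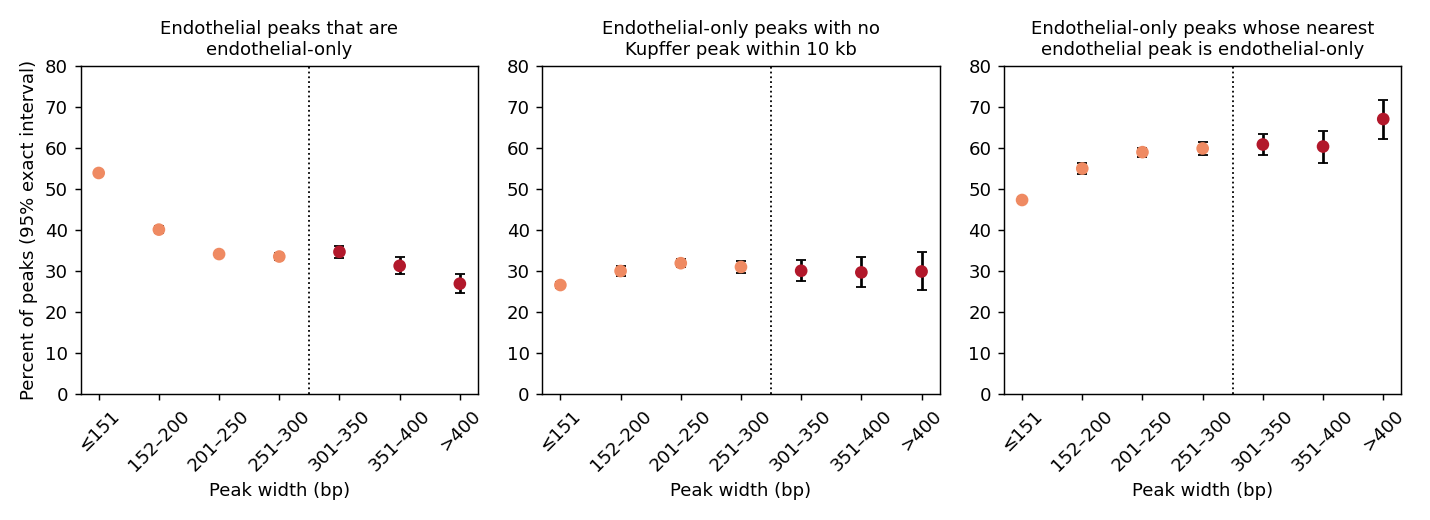
Endothelial peaks by width in bp (x axis) and percent of peaks (y axis) that were endothelial-only (left), that had no Kupffer peak within 10 kb (middle, endothelial-only peaks) or whose nearest endothelial peak was endothelial-only (right, endothelial-only peaks). Points are shares, lines their 95% exact intervals and the dotted line the limit of 300 bp; the left share is 26.9% above 400 bp, against 53.9% up to 151 bp, and the right one 67.0% against 47.3%.

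A Kupffer peak was usually a few kb away. The median gap to the nearest Kupffer peak was 4390.5 bp for wide endothelial-only peaks (95% interval of the median 4029 to 4801 bp) and 3561 bp for the 35039 narrower endothelial-only peaks (3480 to 3656 bp). Kupffer peaks within 1 kb were found beside 20.8% of the wide peaks (19.2% to 22.5%), against 26.4% of the narrower ones (26.0% to 26.9%). The wide class was the lower on 17 of 19 chromosomes. That difference lay in peaks up to 200 bp wide and did not follow the limit of 300 bp. The share was 30.5% up to 151 bp (29.8% to 31.2%) and 25.8% at 152 to 200 bp (24.7% to 26.9%). It was 21.1% at 201 to 250 bp (20.2% to 22.0%) and 21.5% at 251 to 300 bp (20.3% to 22.8%). Over the limit it was 21.1% at 301 to 350 bp (18.96% to 23.4%), 20.97% at 351 to 400 bp (17.8% to 24.4%) and 19.6% above 400 bp (15.8% to 23.9%). At 10 kb the shares were close: 29.9% of wide peaks (28.1% to 31.8%) and 29.0% of narrower peaks (28.5% to 29.4%) had no Kupffer peak that near, and the wide class was the higher on 10 chromosomes and the lower on 9. These intervals, here and below, treat peaks as independent and cover counting error only. No test was made, since neighbouring peaks are not replicates.

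Near misses within 50 bp were few in both width groups. Of the wide peaks, 32 or 1.36% had a Kupffer peak within 50 bp, 1 of them touching it with no base between, and 291 or 12.4% had one within 500 bp. Among narrower endothelial-only peaks these shares were 2.32% within 50 bp and 17.9% within 500 bp. Kupffer peaks flanked 51 wide peaks, or 2.17%, on both sides within 1 kb, against 4.26% of narrower peaks. A peak of the other cell type lay within 1 kb of 20.8% of wide endothelial-only and 20.4% of wide Kupffer-only peaks. Within 10 kb, 29.9% of wide endothelial-only peaks had no Kupffer peak within 10 kb, and 32.9% of wide Kupffer-only peaks had no endothelial peak there. At either distance the other list differs in length, with 134654 Kupffer and 89631 endothelial peaks, so these are not like measures.

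The endothelial peak closest to a wide peak was in most cases endothelial-only too. The nearest other endothelial peak was itself endothelial-only for 61.7% of wide peaks (59.7% to 63.7%), against 52.8% of narrower endothelial-only peaks (52.3% to 53.4%) and 34.4% of wide shared peaks (33.1% to 35.7%). The wide class was above the narrower one on 19 of 19 chromosomes, with shares of 53.7% to 73.3% by chromosome against 47.6% to 57.1%. In the mirror-image class the nearest other Kupffer peak was Kupffer-only for 71.0% of wide Kupffer-only peaks (69.2% to 72.7%). Both wide classes lay above the share of their own list, which was 60.9% Kupffer-only and 41.7% endothelial-only. Narrower Kupffer-only peaks were not measured, so the comparison by width has no mirror image here. Another endothelial-only peak lay within 10 kb of 69.1% of wide peaks (67.2% to 71.0%) and 58.8% of narrower ones (58.3% to 59.4%), again higher on 19 of 19 chromosomes. A shared endothelial peak lay within 1 kb of 12.01% of wide peaks (10.7% to 13.4%) and 17.6% of narrower ones (17.2% to 17.98%), with the wide class lower on 18 of 19 chromosomes. That value and the one for Kupffer peaks within 1 kb overlap in what they count, since each shared peak has a Kupffer peak on it.

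These differences lay mainly among the narrowest peaks. Of the 35039 narrower ones, 16694 had exactly 151 bp, the smallest width of an endothelial-only peak. Both shares below had their highest value above 400 bp. The nearest endothelial peak was endothelial-only for 47.3% of endothelial-only peaks up to 151 bp wide (46.5% to 48.1%), 55.0% at 152 to 200 bp (53.7% to 56.2%), 58.95% at 201 to 250 bp (57.9% to 60.02%) and 59.9% at 251 to 300 bp (58.4% to 61.3%). Over the limit it was 60.8% at 301 to 350 bp (58.2% to 63.4%), 60.3% at 351 to 400 bp (56.4% to 64.2%) and 67.0% above 400 bp (62.1% to 71.7%). The share thus lay on a plateau between 201 and 400 bp, across the limit of 300 bp. Its highest value was above 400 bp, on 388 peaks. That interval overlaps those of 301 to 350 bp and of 351 to 400 bp. Another endothelial-only peak within 10 kb was found for 65.8% at 251 to 300 bp (64.3% to 67.2%) and 68.6% at 301 to 350 bp (66.0% to 71.1%), against 53.5% up to 151 bp (52.8% to 54.3%). At 351 to 400 bp it was 67.7% (63.9% to 71.4%). Above 400 bp it was 73.2% (68.5% to 77.5%), an interval above that of 251 to 300 bp. It overlaps those of 301 to 350 bp and of 351 to 400 bp. How the libraries were merged into 1 list is not given, and whether that step sets both the width and the number of close neighbours was not tested.

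Each wide peak was placed in 1 of 6 kinds of surroundings by the endothelial-only, shared endothelial and Kupffer-only peaks with an edge within 10 kb. A Kupffer peak that overlaps a shared peak was counted only through that shared peak. The most frequent, with 891 peaks or 37.95% (36.0% to 39.9%), held both shared and Kupffer-only peaks. Another 371 or 15.8% had shared peaks nearby and no Kupffer-only peak. Endothelial-only peaks were the sole neighbours of 446 or 18.99% (17.4% to 20.6%), against 14.8% of narrower endothelial-only peaks (14.4% to 15.2%) and 18.7% of those of 251 to 300 bp (17.5% to 19.9%). Endothelial-only and Kupffer-only peaks without a shared one surrounded 249 or 10.6%, against 7.89%. Kupffer-only peaks were the sole neighbours of 132 or 5.62%, against 7.20%, and 259 or 11.03% had no neighbour of any of these kinds, against 14.1%. Median width varied little among the 6 kinds of surroundings, between 336 and 350 bp.

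**Figure D2:**
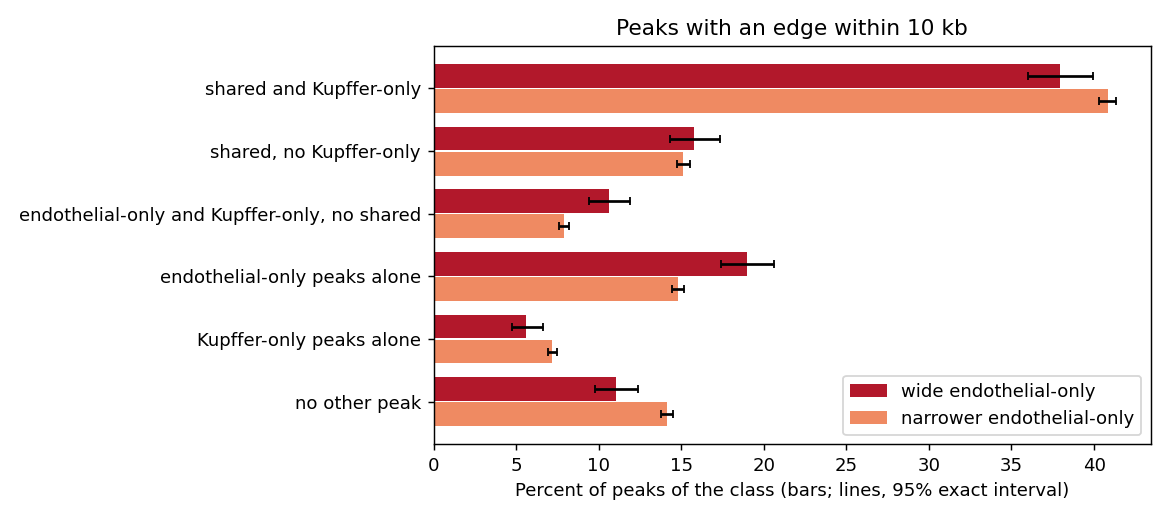
Share of wide and of narrower endothelial-only peaks (x axis, percent; lines are 95% exact intervals) by the kinds of peak with an edge within 10 kb (y axis). Sole endothelial-only neighbours were found for 18.99% of wide and 14.8% of narrower peaks, and no endothelial-only, shared or Kupffer-only neighbour for 11.03% and 14.1%.

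Endothelial-only neighbours were densest close to the peaks. Between 0.5 and 1 kb from the centre of a wide peak there were 13.1 endothelial-only peaks per 100 kb of flank, against 9.60 around narrower endothelial-only peaks and 9.74 around wide shared peaks. Between 5 and 10 kb the values were 6.50, 5.06 and 4.68, and between 100 and 200 kb 3.01, 2.77 and 2.97, over an average of 1.55 along the chromosomes. By width, the density at 5 to 10 kb was 4.37 around endothelial-only peaks up to 151 bp, 6.06 at 251 to 300 bp and 6.43 at 301 to 350 bp. Kupffer-only peaks did not show that difference between wide and narrower endothelial-only peaks, with 6.04 and 6.21 per 100 kb at 5 to 10 kb and 6.24 and 6.18 at 10 to 20 kb, although at 0.5 to 1 kb the values were 5.66 and 6.91. Around wide shared peaks the density of Kupffer-only peaks was 9.60 at 5 to 10 kb. All 3 classes thus lay in parts of the chromosomes richer in Kupffer-only peaks than the average of 3.40 per 100 kb.

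**Figure D3:**
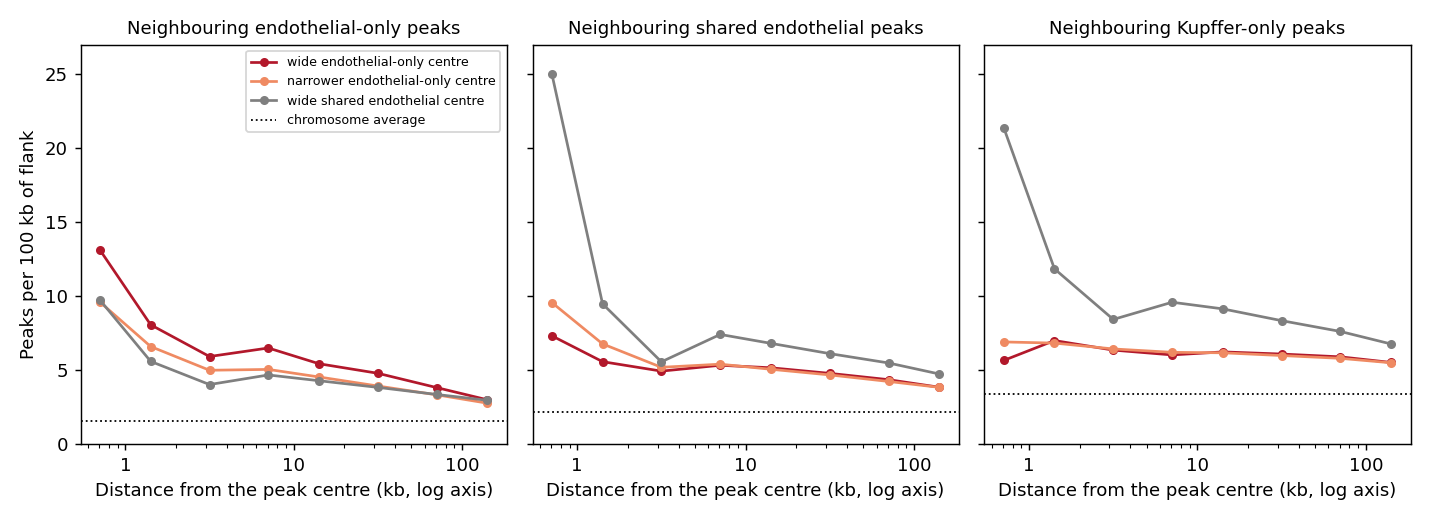
Peaks per 100 kb of flank (y axis) at a given distance from the peak centre (x axis, kb, log scale), for endothelial-only (left), shared (middle) and Kupffer-only (right) neighbours of wide endothelial-only, narrower endothelial-only and wide shared peaks; dotted lines are chromosome averages. In the left panel wide endothelial-only peaks lie above narrower ones, with 6.50 against 5.06 at 5 to 10 kb; in the right panel these classes run together from 1 kb on.

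Part of the wide endothelial-only peaks lay near each other. The gap between consecutive ones had a median of 385.5 kb, and 133 of 2329 consecutive pairs were within 10 kb. Another wide endothelial-only peak lay within 50 kb of 33.5% of them (31.6% to 35.4%), against 25.0% of narrower endothelial-only peaks (24.6% to 25.5%) and 22.5% of wide shared peaks (21.3% to 23.7%). The wide class was above the narrower one on 17 of 19 chromosomes. The share was 29.4% at 251 to 300 bp (28.0% to 30.8%) and 33.96% at 301 to 350 bp (31.4% to 36.6%). The closest pair, on chromosome 8, was a 357 bp peak from 130974294 to 130974650 and a 316 bp peak from 130974666 to 130974981, 15 bp apart. The next closest lay 20 bp apart on chromosome 9, a 349 bp peak from 123366364 to 123366712 and a 376 bp peak from 123366733 to 123367108. Whether such a pair is 1 open stretch was not tested.

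In windows of 100 kb, 1943 held at least 1 wide endothelial-only peak, 1617 of them exactly 1. There were 54 windows with 3, 8 with 4 and 3 with 5, so 209 of the 2348 peaks lay in windows with 3 or more. Windows with at least 10 endothelial-only peaks of any width held 18.9% of wide peaks (17.3% to 20.6%) and 12.9% of narrower ones (12.5% to 13.2%), with 10.5% up to 151 bp (10.1% to 11%) and 16.4% at 251 to 300 bp (15.3% to 17.6%). A wide peak was the only endothelial-only peak of its window in 6.22% of cases, against 11.9% of narrower ones.

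The window with the fewest Kupffer-only peaks among the 3 fullest lay on chromosome 5 from 76300001 to 76400000. It held 18 endothelial-only peaks, 5 of them wide, with 2 shared endothelial peaks and 1 Kupffer-only peak. The wide peaks measured 310 bp (76333955 to 76334264), 377 bp (76341458 to 76341834), 327 bp (76357913 to 76358239), 502 bp (76370621 to 76371122) and 352 bp (76374400 to 76374751). The longest of the 5 lay 509 bp from another endothelial peak and 511 bp from a Kupffer peak, and the 377 and 327 bp peaks lay 11.6 and 13.4 kb from one.

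The window on chromosome 11 from 55200001 to 55300000 was mixed, with 10 endothelial-only peaks of which 5 were wide, 7 shared and 14 Kupffer-only peaks. It includes the 619 bp peak given above. The other wide peaks there measured 311 bp (55219179 to 55219489), 365 bp (55219628 to 55219992), 524 bp (55231443 to 55231966) and 321 bp (55241772 to 55242092). All 5 lay in the first 50 kb of the window, and their nearest Kupffer peaks were between 1.47 and 9.24 kb away. On chromosome 18 from 80800001 to 80900000 there were 13 endothelial-only peaks, 5 of them wide, beside 5 shared and 4 Kupffer-only peaks. Those 5 measured 430 bp (80821940 to 80822369), 376 bp (80825626 to 80826001), 329 bp (80830298 to 80830626), 360 bp (80852407 to 80852766) and 590 bp (80871068 to 80871657).

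**Figure D4:**
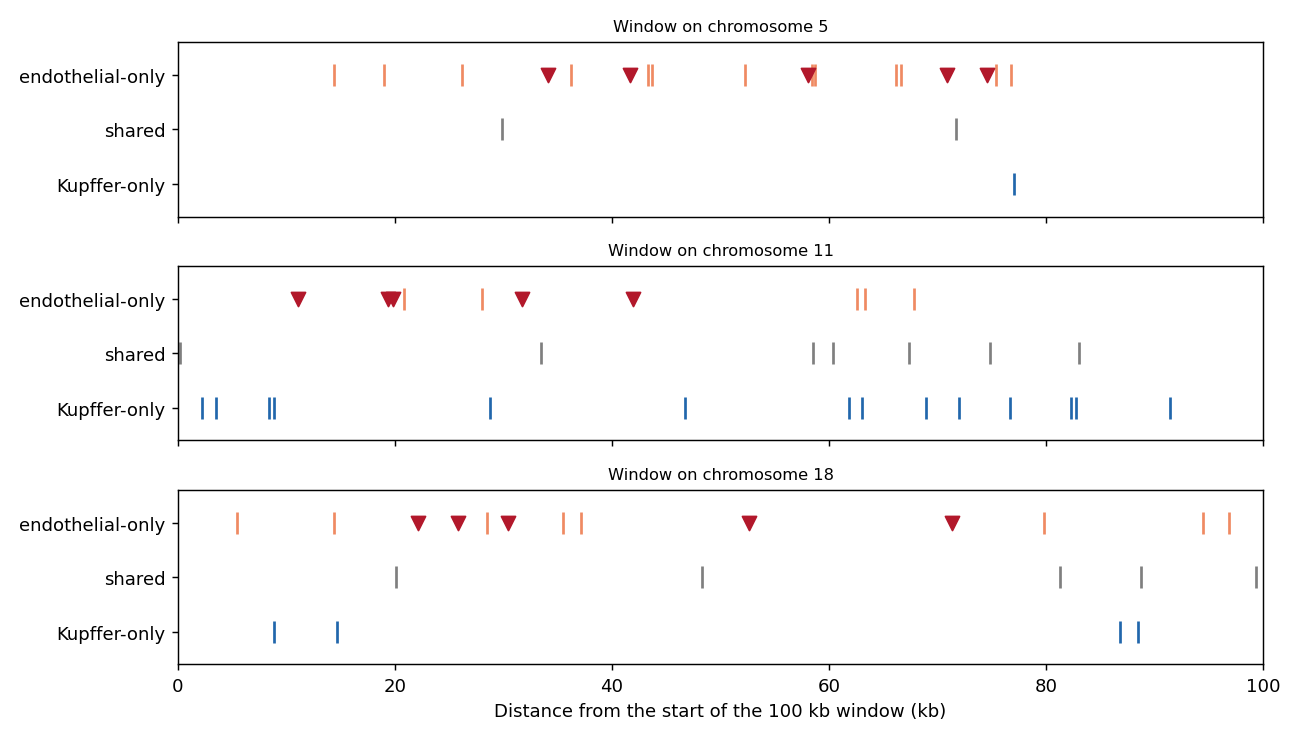
Position of peak centres (x axis, kb from the start of the window) in the 3 windows of 100 kb with 5 wide endothelial-only peaks, by kind of peak (y axis); triangles are wide endothelial-only peaks and ticks all other peaks. The window on chromosome 5 has 1 Kupffer-only peak, that on chromosome 11 has 14 and that on chromosome 18 has 4.

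Windows with 4 wide endothelial-only peaks began at 134200001 on chromosome 1, 44900001 on chromosome 2, 37300001 on chromosome 6, 106700001 on chromosome 7, 122800001 on chromosome 8, 118800001 on chromosome 9, 86400001 on chromosome 10 and 21900001 on chromosome 19. They held between 11 and 16 endothelial-only peaks in all. Kupffer-only peaks numbered 1 in the window on chromosome 7 and 20 in that on chromosome 2, so a gathering of wide endothelial-only peaks did not go with an absence of Kupffer peaks.

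Uninterrupted runs give another view of the same arrangement. A run is a series of endothelial-only peaks with no shared or Kupffer peak between them. Of the wide peaks, 32.7% stood alone in their run (30.8% to 34.6%), against 42.0% of narrower ones (41.4% to 42.5%), and 23.0% belonged to runs of 5 or more (21.3% to 24.8%), against 17.4% (17.01% to 17.8%). At 251 to 300 bp these shares were 34.6% (33.2% to 36.1%) and 21.7% (20.5% to 23.01%), and up to 151 bp 48.2% (47.4% to 48.9%) and 13.2% (12.7% to 13.7%). Most runs with a wide peak, 1960, held 1, while 144 held 2, 25 held 3, 5 held 4 and 1 held 5. The run with 5 lay on chromosome 18 from 63279109 to 63623553, spanning 344.4 kb with 18 endothelial-only peaks. A shorter one on chromosome 10, from 115636251 to 115725578, held 20 endothelial-only peaks in 89.3 kb, 4 of them wide. Runs depend on the depth behind both lists, which is unknown.

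Some wide peaks stood far from any Kupffer peak. In all, 96 or 4.09% had none within 100 kb (3.32% to 4.97%), against 4.46% of narrower endothelial-only peaks (4.24% to 4.68%), and 8 had none within 500 kb. The farthest was a 383 bp peak on chromosome 3 from 49446321 to 49446703, with the nearest Kupffer peak 738.9 kb and the nearest endothelial peak 114.5 kb away. A 426 bp peak on chromosome 1 from 113023168 to 113023593 lay 737.1 kb from a Kupffer peak but 35.4 kb from an endothelial one. The next 3 lay on chromosome 7 from 55299529 to 55299831 (303 bp), on chromosome 16 from 80513068 to 80513374 (307 bp) and on chromosome 11 from 39259972 to 39260335 (364 bp). Their nearest Kupffer peaks were 704.9, 687.5 and 683.9 kb away. Of the 96, 52 had another endothelial-only peak within 10 kb and 21 had no endothelial peak within 50 kb. In the whole class of 2348 these shares were 69.1% and 2.68%. The share with no endothelial peak within 50 kb was partly fixed by the choice of the 96. Each shared peak has a Kupffer peak on it, so no shared peak could lie within 50 kb of them. In the whole class 85.4% had a shared peak within 50 kb, so nothing is read from that contrast. An endothelial-only neighbour within 10 kb was less frequent among the 96 than in the class. The median width of the 96 was 343.5 bp, close to that of the whole class. No peak of either list lay within 50 kb of 1.53% of wide peaks, against 2.82% of narrower ones, where the share was 3.504% up to 151 bp (3.23% to 3.79%) and 1.67% at 251 to 300 bp (1.30% to 2.10%).

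Chromosomes carried between 0.74 and 1.14 wide endothelial-only peaks per Mb, lowest on chromosome 3 and highest on chromosome 18, with 0.97 over all 19. On 18 of the 19, the interval of the share of endothelial-only peaks that were wide included the overall 6.28%. The exception was chromosome 15, with 75 of 1685 or 4.45% (3.52% to 5.55%). For the share of wide endothelial peaks that were endothelial-only, 4 intervals missed the overall value. It was 39.9% on chromosome 1 (35.1% to 44.7%), the 1 interval above the overall 32.2%, and 24.8% on chromosome 11 (21.2% to 28.7%), 25.4% on chromosome 19 (20.1% to 31.4%) and 26.0% on chromosome 15 (21.1% to 31.5%), the 3 intervals below it. Differences between chromosomes were not tested.

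**Figure D5:**
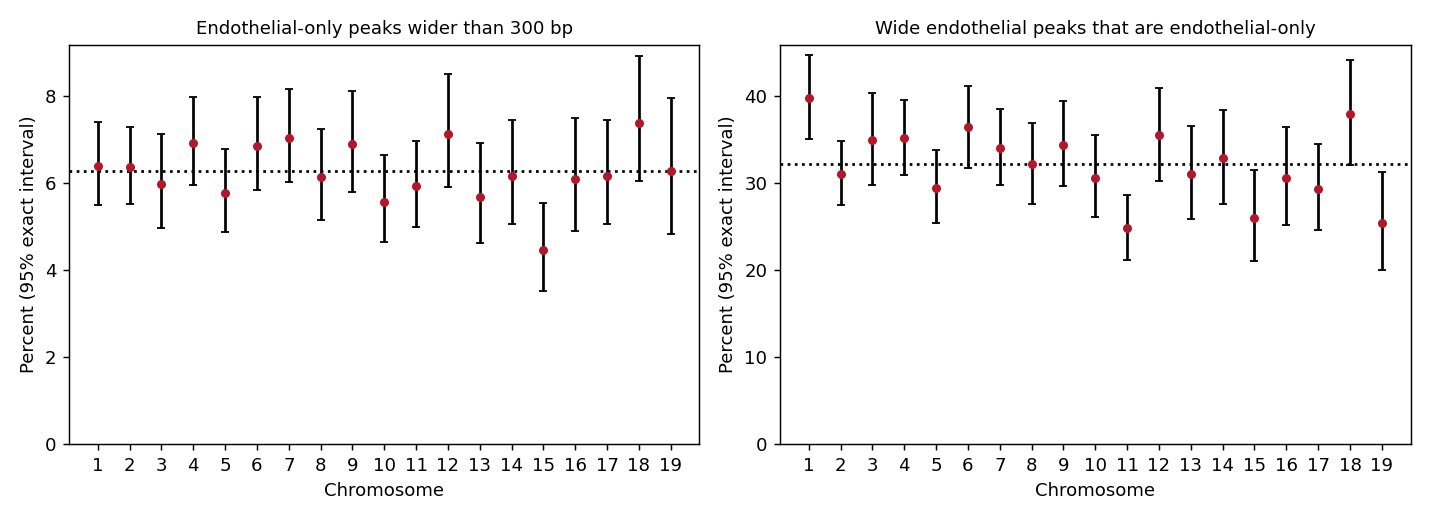
Percent of endothelial-only peaks wider than 300 bp (left) and percent of wide endothelial peaks that were endothelial-only (right) on each chromosome (x axis); points are shares, lines 95% exact intervals and dotted lines the overall 6.28% and 32.2%. Chromosome 15 is the one interval off the line on the left, and chromosomes 1, 11, 15 and 19 are off it on the right.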

How the data were processed

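The authors deposited 1 list of nucleosome-free peaks per cell type, as the list names say, with a chromosome, start and end per peak and no other value. Per the submitters' processing notes, Bowtie and HOMER were used with the build mm9; versions, thresholds, transposase offsets, fragment selection and merging of the 32 libraries are not given there. Starts were counted from 0 in the files and are printed counted from 1. Gaps run from edge to edge. Overlaps and gaps were computed with NumPy 2.4.6 and pandas 2.3.3 in Python 3.11.15, tested on simulated data and checked against bedtools 2.31.1. Shares have exact (Clopper-Pearson) 95% intervals from SciPy 1.17.1, and medians exact order-statistic intervals. Values by width class were added after the results were seen. Named peaks are the 10 widest, the 5 farthest from a Kupffer peak and the 5 fullest windows of 100 kb with ties, which gave 11. The closest pairs and the run with 5 wide peaks were named after their values were seen. The members and measures were chosen with earlier results of these data known. The gene tables at hand are on GRCm38, so the gene lists and motifs planned for mm9 were not used. No p-value was computed.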

Additional observations from a re-analysis of the deposited data

How the results depend on the processing

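The shares moved with the definitions, and no test was made under any. Of 32 alternative values, 8 stayed within the interval of a share or median or within 1.5 times a count, and 24 moved further. Asking that 50% or more of both peaks overlap admits peaks that a narrower Kupffer peak overlaps: it gave 3812 wide endothelial-only peaks, 52.3% of wide peaks, with 18.4% having no Kupffer peak within 10 kb, a median gap to the next endothelial peak of 1856.5 bp (2270.5 bp as reported) and 163 windows with 3 or more (65 as reported). Counting Kupffer peaks within 500 bp as shared gave 28.2% of wide peaks, 34.2% without a Kupffer peak within 10 kb, a gap of 2642 bp and 64.95% with an endothelial-only peak within 10 kb. Under both of these overlap rules the peaks with no Kupffer peak within 10 kb are the same 703 as reported. That share therefore moved only through the number of peaks it was divided by, as the definitions fix, although both values count among the 24. A limit of 250 bp gave 6545 peaks, 67.0% with an endothelial-only peak within 10 kb and 498 windows. A limit of 400 bp gave 388 peaks, 26.9% of wide peaks, 73.2% with an endothelial-only peak within 10 kb and 0 windows. Joining endothelial peaks within 500 bp gave 3997 peaks, 24.4% of wide peaks, 33.1% without a Kupffer peak within 10 kb, a gap of 3835 bp, 58.6% with an endothelial-only peak within 10 kb and 176 windows. Windows of 50 kb and 200 kb gave 24 and 101. No paired analysis was possible because each cell type has 1 list with no values per library, and no replicate could be left out. The alternatives for GC content, motifs and gene starts were not run, as no mm9 sequence or annotation was used, and without scores no stricter peak threshold could be set. Absence from a list means no call at an unknown depth.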

Other observations

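Some wide peaks of the opposite kinds lay side by side. Of the 2348 wide endothelial-only peaks, 93 had a wide Kupffer-only peak within 10 kb and 8 had one within 1 kb. The closest such case was a 356 bp endothelial-only peak on chromosome 3 from 27530099 to 27530454, 81 bp from a wide Kupffer-only peak. The next was a 361 bp peak on chromosome 1 from 134232089 to 134232449, 141 bp from one, and it lies in a window with 4 wide endothelial-only peaks. A wide Kupffer-only peak lay within 10 kb of 3.96% of wide (3.21% to 4.83%) and 4.06% of narrower endothelial-only peaks (3.85% to 4.27%), and these shares differed by less than their counting intervals.

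On the X chromosome, outside the set described above, 38 of 700 endothelial-only peaks or 5.43% were wide (3.87% to 7.38%), against 6.28% on chromosomes 1 to 19. Among Kupffer-only peaks, 57 of 1868 or 3.05% on X were wide (2.32% to 3.94%), against 3.21% on chromosomes 1 to 19.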
